A study of Mus musculus with 36 samples.

Results

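DNA methylation of adult liver was compared between the sons and the virgin daughters of a single cross, C57BL/6N dams mated to C3H/HeN sires, whose offspring are called B6C3F1. All 6 B6C3F1 animals that were bisulfite sequenced entered the comparison, 3 males and 3 females, out of 24 bisulfite-sequenced animals and 36 samples in the whole series. None of these 6 animals had borne pups, so pregnancy and lactation do not enter the contrast. The other bisulfite animals were 3 males and 3 females of the reciprocal cross C3B6F1 (C3H/HeN dam, C57BL/6N sire), and 3 sires and 3 dams of each inbred strain, B6 and C3. All were 20 weeks old, and the labels name no transgene and no treatment for any of them. The readout was whole-genome bisulfite sequencing of frozen liver, in which unmethylated cytosines are converted and read as thymine while methylated cytosines are not, so that each read covering a CpG counts as methylated or unmethylated. A share from whole liver averages over its cell types and over both alleles, and a change in the make-up of the tissue cannot be told apart from a change within 1 cell type.

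Liver is a strongly sex-dimorphic organ in rodents. The pituitary releases growth hormone in pulses in males and almost continuously in females, and the signal reaches the hepatocyte genome through the growth hormone receptor, the kinase JAK2 and the factor STAT5B. Downstream, the repressor BCL6 predominates in males and the homeobox factor CUX2 in females, and each holds down genes typical of the other sex. The genes that respond include steroid- and drug-metabolizing cytochromes P450, sulfotransferases, major urinary proteins and fatty acid elongases. Methylation of CpGs at enhancers and promoters usually falls where these elements are active.

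In the autosomes, 18887127 CpGs were measured. The 3 males had 453208426 to 476717141 counts each and the 3 females 588589518 to 619888157, that is 23.996 to 25.2 and 31.2 to 32.8 counts per CpG. Every female was therefore sequenced more deeply than every male, and depth and sex cannot be told apart by the design. The effect of thinning the counts to equal totals is given beside the main result. Depth on the X chromosome, divided by autosomal depth, was 0.4775 to 0.5999 in the 12 males of the series. It was 0.893 to 0.988 in the 12 females, and these values matched the labelled sex of each animal. The highest male value was that of C3B6F1 male 1, and the next highest, in B6C3F1 male 1, was 0.521. Promoters of 10 hepatocyte genes, among them Alb and Ttr, had mean levels between 15.9% and 28.5% in males and between 16.9% and 26.7% in females, whereas promoters of 9 leukocyte genes such as Ptprc and Cd3e lay between 79.9% and 90.1% in males and between 74.2% and 90.4% in females. The mean over the 9 leukocyte promoters was 84.3% to 84.4% in the males and 82.3% to 82.7% in the females, with 8 of 9 promoters higher in males by up to 5.78 points and none called. The mean over the hepatocyte promoters was 19.8% to 24.2% in males and 17.0% to 25.5% in females, so these ranges overlapped. No gene on the Kupffer, endothelial, leukocyte, stellate, cholangiocyte and hepatocyte marker lists had a called promoter or window. Among all protein-coding genes, 0.257% had a window called higher in males and 2.23% one called higher in females. Among all promoters, 0.0248% and 0.0447% were called. For lists this short, an absence of calls is near these shares. The part of cell composition in the results was not tested beyond these values.

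Global methylation did not separate the sexes. The share of methylated counts over all autosomal CpGs was 76.9%, 76.9% and 76.3% in the males and 76.4%, 76.5% and 75.9% in the females (76.7% ± 0.375 and 76.3% ± 0.304, SD, n = 3 each), a difference of 0.42 points (exact permutation test, two-sided, p = 0.3). With 3 animals against 3, this test cannot give a p below 0.1. Averaging the shares of single CpGs with at least 10 counts in each of the 6 animals gave -0.091 points (exact permutation test, two-sided, p = 0.4).

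Local differences were present and were mostly in 1 direction. Counts were summed in fixed 500-bp windows with at least 5 CpGs and at least 30 counts in each animal. A window was called where limma gave an adjusted p below 0.05 and the mean levels of the sexes differed by at least 20 percentage points. Of 1456902 windows tested, 885 were called: 96 were higher in males (0.00659% of all tested) and 789 higher in females (0.0542%). The female-high windows made up 89.2% of the calls. Over all tested windows the median difference was -0.0067 points and 50.2% of windows were higher in females. The called female-high windows had a median level of 43.8% in males and 72.1% in females, and the male-high windows 69.6% in males and 41.4% in females. All 96 male-high windows and 788 of 789 female-high windows had every animal of a sex above every animal of the other. The windows were called on the values of these same 6 animals, so this separation follows largely from the calling rule. The share of all tested windows with such separation is not given here. Thinning the counts of all 6 animals to the total of the shallowest gave 893 calls, 100 male-high and 793 female-high. The plot of all windows shows both groups of calls away from the diagonal.

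**Figure D1:**
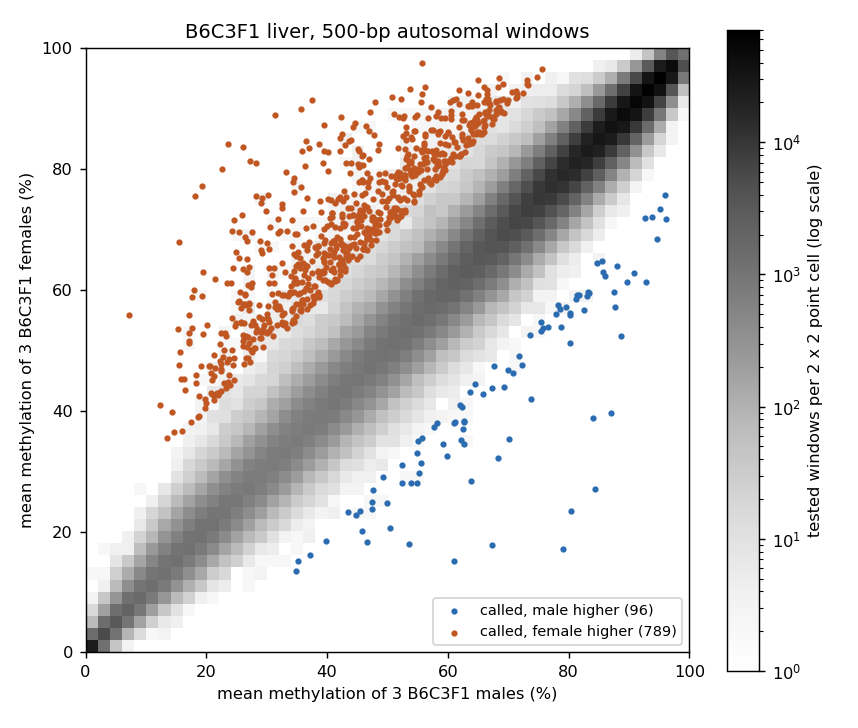
Mean methylation level of each tested 500-bp autosomal window in the 3 B6C3F1 males (horizontal axis, percent) and the 3 females (vertical axis, percent); grey cells give the number of windows on a log scale, and coloured points are called windows. The 789 female-high windows lie above the diagonal and the 96 male-high windows below it, most of them at middling levels.

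Windows of 1 direction within 1000 bp of each other formed 82 male-high and 695 female-high regions. The sequences of several of these regions are printed here because the comparison turns on them. Each is 220 bases of the mm9 plus strand, 5′ to 3′, holding the stretch of the called window that is densest in measured CpGs, with every measured CpG in capitals. The first 3 are the male-high regions of largest difference, at chr5:33800182-33800401 near Nkx1-1, chr5:122451074-122451293 in an intron of Cux2 and chr11:50483668-50483887 in an intron of Adamts2.
Nkx1-1 region: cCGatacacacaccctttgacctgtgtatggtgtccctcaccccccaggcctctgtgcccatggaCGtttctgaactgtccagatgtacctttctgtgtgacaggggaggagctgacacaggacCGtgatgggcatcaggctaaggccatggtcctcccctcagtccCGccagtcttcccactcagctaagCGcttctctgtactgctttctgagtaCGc
Cux2 intron: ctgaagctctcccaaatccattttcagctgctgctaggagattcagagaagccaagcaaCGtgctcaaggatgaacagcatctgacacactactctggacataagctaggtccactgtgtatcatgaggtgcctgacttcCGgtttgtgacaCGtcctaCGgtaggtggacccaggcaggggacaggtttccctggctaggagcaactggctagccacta
Adamts2 intron: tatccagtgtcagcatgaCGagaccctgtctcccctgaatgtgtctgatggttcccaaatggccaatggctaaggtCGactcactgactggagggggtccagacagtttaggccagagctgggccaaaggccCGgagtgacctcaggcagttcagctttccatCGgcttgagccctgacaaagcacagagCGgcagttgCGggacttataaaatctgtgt
The 2 female-high regions shown are chr12:31026612-31026831 in an intron of Sntg2 and chr15:10648624-10648843 in an exon of the transcript 4930556M19Rik.
Sntg2 intron: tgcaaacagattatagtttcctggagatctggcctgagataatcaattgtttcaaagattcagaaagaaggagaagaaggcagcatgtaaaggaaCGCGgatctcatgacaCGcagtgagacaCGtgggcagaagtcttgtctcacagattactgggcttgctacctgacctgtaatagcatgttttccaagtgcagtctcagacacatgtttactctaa
4930556M19Rik exon: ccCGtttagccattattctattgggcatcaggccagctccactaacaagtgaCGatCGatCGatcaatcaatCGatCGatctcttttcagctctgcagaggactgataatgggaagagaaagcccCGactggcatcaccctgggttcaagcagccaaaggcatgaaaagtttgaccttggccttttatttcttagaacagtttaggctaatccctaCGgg
In these stretches the differences of single CpGs, males minus females, ran from 11.4 to 81.1 points over 6 CpGs near Nkx1-1, from 37.5 to 64.0 over 4 CpGs in Cux2, from -66.7 to -55.5 over 4 CpGs in Sntg2 and from -77.4 to -33.1 over 8 CpGs in 4930556M19Rik. No CpG of these stretches went against the direction of its window.

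The male-high window with the largest difference was chr5:33800001-33800500, with 10 CpGs, intergenic and 23376 bp upstream of Nkx1-1, a homeobox gene. Its level was 83.8%, 78.5% and 75% in the males and 18.6%, 16.8% and 15.8% in the females, a difference of 62.1 points (limma adjusted p = 1.01e-12). Next was chr5:122451001-122451500 in Cux2, 853 bp downstream of the start of an internal Cux2 transcript and 48611 bp from the start of the whole gene. The males stood at 81.7%, 80% and 79.5% and the females at 27.0%, 20.3% and 22.7%, a difference of 57.1 points (limma adjusted p = 1.68e-06). All 7 called windows of Cux2, out of 377 tested in its body and within 10 kb, were lower in females. The Cux2 promoter at the start of the gene was 1.33% methylated in males and 0.687% in females and was not called.

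A window in an intron of Adamts2, which encodes a procollagen N-proteinase (chr11:50483501-50484000), was 67.3% ± 4.54 in males and 17.8% ± 3.48 in females (SD, n = 3 each). BC089597 (chr10:127305001-127305500, intron) stood at 87.1% ± 1.30 and 39.6% ± 6.65. Slc16a5, of the monocarboxylate transporter family (chr11:115325001-115325500, exon), stood at 61.0% ± 10.3 and 15.1% ± 2.96. Only regions without overlap of the sexes were named, so in each of these genes the lowest male was above the highest female. Abp1, a diamine oxidase, had 68.2% ± 3.84 in males and 32.1% ± 2.27 in females 2485 bp upstream of a start site (chr6:48852001-48852500). A window 3098 bp upstream of 2610002J02Rik (chr4:154620501-154621000) had 63.8% ± 2.47 and 28.3% ± 7.62. Celsr1, a cadherin of planar cell polarity, had 73.8% ± 7.38 and 41.9% ± 11.6 in an intron (chr15:85821501-85822000).

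The other 4 of the 12 male-high regions named were at 1 cluster of cytochrome P450 genes on chromosome 7. Cyp2b9, Cyp2b13 and Cyp2a4 belong to families that oxidize steroids and foreign compounds, and all are expressed mainly in female liver. At chr7:27093501-27094000, in an exon of Cyp2a4 with 20 CpGs, the males were at 90.0%, 87.3% and 88.9% and the females at 49.6%, 63.1% and 44.3%. Female 2 was the highest of the females, and by the rule for named regions all females were below the lowest male. An intron of Cyp2b9 (chr7:26968001-26968500) was at 70.1% ± 5.64 in males and 35.3% ± 2.63 in females, a window 52930 bp upstream of it (chr7:26905001-26905500) at 84.0% ± 8.06 and 38.7% ± 3.01, and an intron of Cyp2b13 (chr7:26855501-26856000) at 92.7% ± 1.42 and 61.3% ± 1.43. The cluster held 12 called windows of 116 tested over 325 kb, all male-high. The stretch of the Cyp2a4 exon at chr7:27093513-27093732 is shown because it holds 16 CpGs, each lower in females by 24.7 to 48.5 points.
Cyp2a4 exon: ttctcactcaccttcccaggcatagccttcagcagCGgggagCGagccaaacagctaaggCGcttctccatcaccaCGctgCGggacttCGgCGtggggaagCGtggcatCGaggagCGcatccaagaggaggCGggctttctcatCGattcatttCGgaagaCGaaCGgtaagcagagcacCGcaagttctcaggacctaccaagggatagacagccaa

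On the female-high side, the window of largest difference was chr12:31026501-31027000 in an intron of Sntg2, a syntrophin. It stood at 27.2%, 26.6% and 17.0% in the males and 86.1%, 81.0% and 85.2% in the females, a difference of -60.5 points (limma adjusted p = 3.98e-10). The window chr15:10648501-10649000 in 4930556M19Rik, 4115 bp upstream of Rai14, which encodes an ankyrin-repeat protein, had 20.8%, 19.1% and 17.7% in males and 75.9%, 79.3% and 76.3% in females. The animals of a sex lay close together in it, against a difference of -57.9 points between the sexes.

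Signalling genes were among the rest. Prkg2, a cyclic GMP-dependent kinase (chr5:99420501-99421000), had 18.1% ± 6.28 in males and 75.6% ± 2.16 in females. Dock1, an exchange factor for the GTPase Rac (chr7:142235501-142236000), had 31.4% ± 3.47 and 88.9% ± 2.85, and Pik3c2g, a phosphoinositide kinase (chr6:139801001-139801500, exon), 15.6% ± 3.93 and 68.0% ± 3.77. Arhgap23, a GTPase-activating protein, had 7.27% ± 3.53 and 55.8% ± 6.42 (chr11:97304501-97305000). All of these windows were introns except that of Pik3c2g. Both named windows in the transcript Gm12718 lay 71084 bp and 73584 bp past the start of Oma1, a mitochondrial protease, at chr4:103057501-103058000 (22.6% ± 1.52 in males, 79.97% ± 2.68 in females) and chr4:103060001-103060500 (28.2% ± 5.65 and 81.0% ± 1.31). A window 115640 bp upstream of Dap (chr15:31038001-31038500) had 27.2% ± 2.81 and 81.4% ± 2.02. The window chr6:124589001-124589500, 1946 bp upstream of Gm5077, had 37.5% ± 4.07 in males and 91.5% ± 0.128 in females. Its depth relative to the autosomal mean of each animal was 2.83 times as high in males as in females, where the other named windows had ratios between 0.771 and 1.32. The part of this depth difference in its value was not tested.

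**Figure D2:**
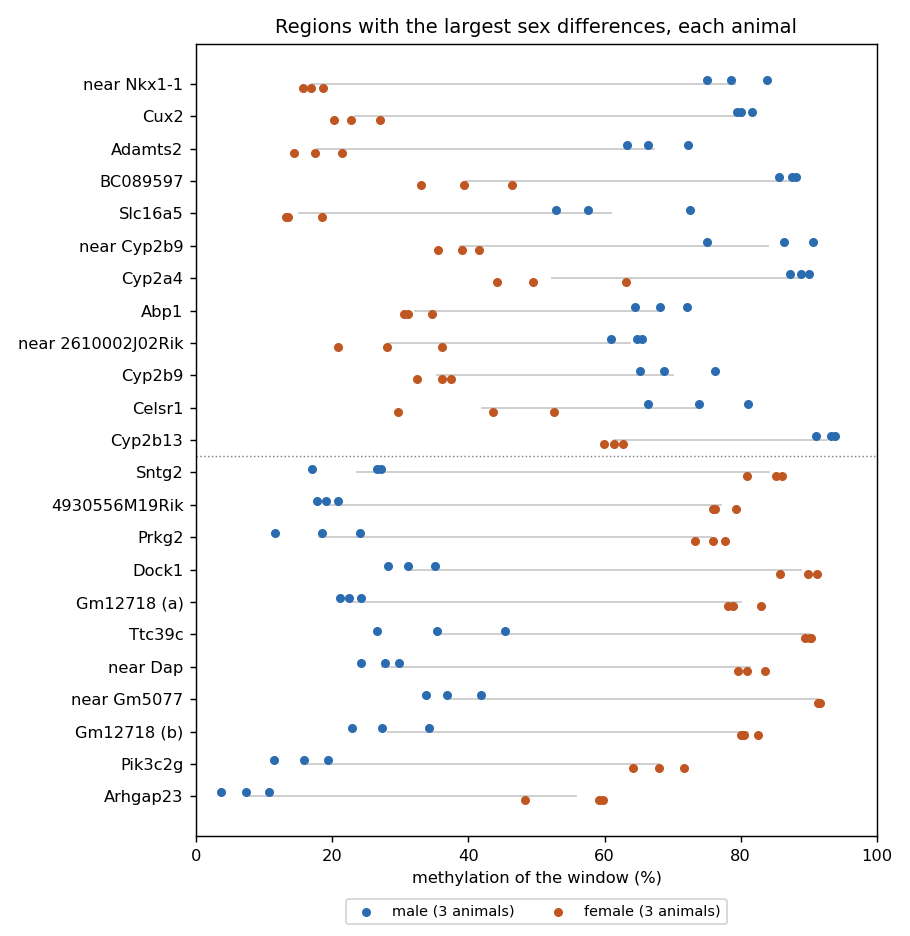
Methylation level (horizontal axis, percent) of each B6C3F1 animal at the window of largest difference in the 12 male-high regions (above the dotted line) and the female-high regions (below it) named in the text; each point is 1 animal and grey lines join the means of the sexes. Rows run from the window near Nkx1-1 (males 75% to 83.8%, females 15.8% to 18.6%) to Arhgap23 (males 3.72% to 10.8%, females 48.4% to 59.8%). Regions were named only where the sexes did not overlap, so the separation of the points in each row follows from that choice.

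Some loci held many called windows. Joined across gaps of up to 100 kb, the 885 windows made 593 loci, of which 126 held at least 2 windows and 14 held 5 or more. These loci were delimited after the calls were seen. The locus with the most called windows was on chromosome 18, where Ttc39c, a tetratricopeptide-repeat gene, and its neighbours Lama3 and Cabyr held 54 called windows of 203 tested over 219.5 kb, all female-high. Averaged over these 54 windows, the males were at 44.9%, 46.0% and 41.9% and the females at 76.0%, 75.5% and 74.6%. The window of largest difference there, chr18:12829001-12829500 in an intron of Ttc39c, was at 35.3%, 45.4% and 26.5% in males and 89.5%, 90.2% and 90.3% in females. Relative depth in males over these windows was 0.829 of that in females at the median (0.579 to 1.03), and 4 of them differed in depth by more than 1.5 times. The part of this depth difference in the result was not tested. Other runs were 11 windows at Rassf3, 10 at Scara5, 10 at Scp2 and Zyg11a and 9 near Oma1, all female-high, and 8 at Cyp2c69 and Cyp2c40 and 7 at Cux2, all male-high. Of 126 loci with at least 2 called windows, 1 mixed both directions.

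Across the windows of Cux2, Sntg2 and Elovl3, the sexes also differed at CpGs outside the called window, as the per-CpG plot shows. In Cux2 they lay close together from -886 to -587 bp of the window's centre and apart again at single CpGs farther out, such as -949 bp (51.8% in males and 17.3% in females) and -1813 bp (89.3% and 36.2%).

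**Figure D3:**
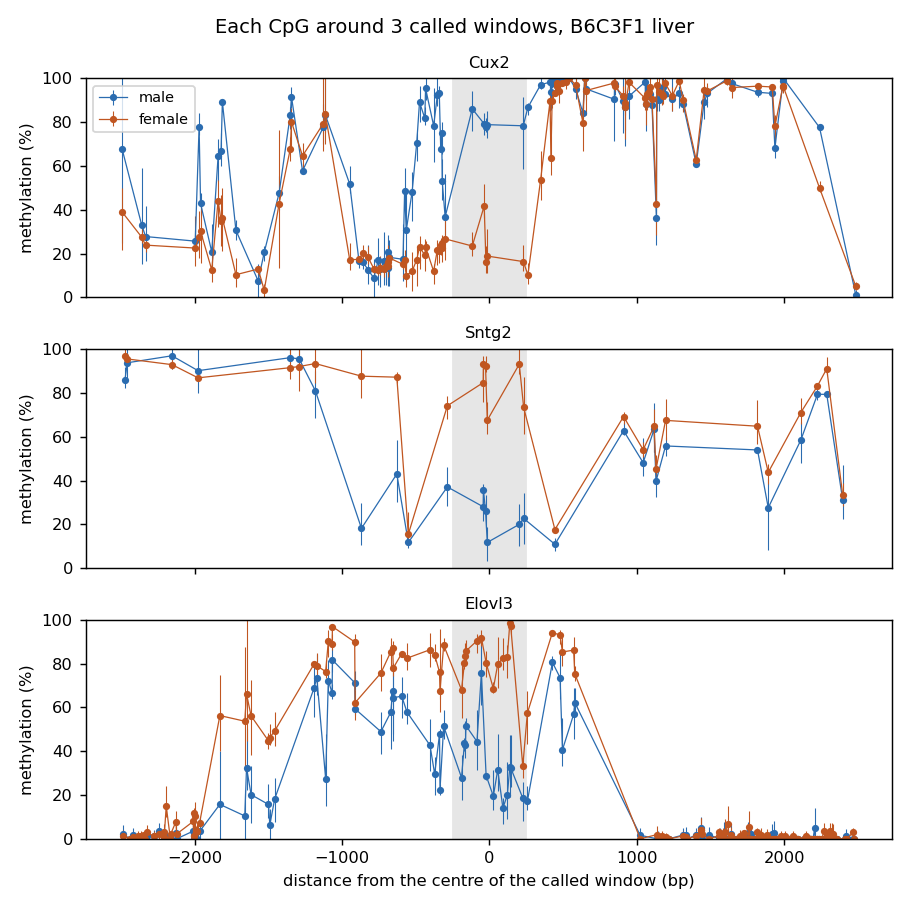
Methylation level (vertical axis, percent) of single CpGs around the centre of the called window in Cux2, Sntg2 and Elovl3; points are means of 3 animals of a sex, bars run from the lowest to the highest animal, and the grey band is the called window. In the window of Cux2 the males lie above the females (80.4% against 23.3% over the window), and in those of Sntg2 (23.6% against 84.1%) and Elovl3 (33.2% against 79.6%) below them.

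Genes known for sex-biased expression in mouse liver were then examined as lists. These lists and the later ones were chosen with earlier results of these data known. Their contrast with all genes may therefore be partly fixed in advance. For each gene, windows in its body or within 10 kb were counted. Among all 21020 autosomal protein-coding genes with a tested window, 54 (0.257%) had a male-high window and 469 (2.23%) a female-high one. Of 39 genes with female-biased expression, 10 had a male-high window and 0 a female-high one. Of 35 genes with male-biased expression, 12 had a female-high window and 0 a male-high one. In windows, the female-biased list held 30 male-high calls among 2156 tested and the male-biased list 37 female-high calls among 1487. Several of these genes are neighbours and share windows. The median difference over all tested windows of the lists was 0.19 points and -0.50 points, against -0.0067 for all windows.

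Of the female-biased genes, Cux2, Cyp2a4, Cyp2b9 and Cyp2b13 are given above. Cyp2c69 and Cyp2c40, P450 genes of the Cyp2c cluster, had 5 of 7 and 3 of 8 tested windows called. The window of largest difference in Cyp2c69 (chr19:39959501-39960000, intron) was at 88.9%, 89.6% and 84.6% in males and 57.8%, 59.3% and 54.6% in females. A1bg, a secreted immunoglobulin-family protein, had 91.8%, 92.1% and 85.2% in males and 64.9%, 53.0% and 66.2% in females at chr15:60751501-60752000. Prlr, the prolactin receptor, had 43.7%, 46.3% and 47.5% against 24.9%, 19.8% and 15.5% at chr15:10109501-10110000, 2508 bp from the start of the gene. In both genes the sexes did not overlap, which follows largely from the calling rule. Hamp2, a hepcidin, stood at 80.2% ± 1.18 and 56.2% ± 1.70 at 2200 bp from its start (chr7:31706501-31707000), and Sall1, a zinc-finger gene, at 67.6% ± 0.712 and 47.4% ± 1.21 (chr8:91552001-91552500).

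Of the male-biased genes, Elovl3, which elongates very long chain fatty acids, had the largest difference. Its exonic window chr19:46208501-46209000, 2114 bp from the gene's start, was at 29.8%, 42.7% and 27.0% in males and 79.6%, 76.3% and 83.0% in females (limma adjusted p = 6.49e-09). All 5 called windows of Elovl3 out of 28 tested were female-high. Cyp2d9, a testosterone hydroxylase, had 45.1%, 41.2% and 40% against 83.6%, 83.3% and 88.6% at chr15:82284501-82285000 in an exon, and 5 of its 9 tested windows were called. In both genes every male was below every female, which follows largely from the calling rule. The stretches of both windows are shown because they lie within the genes.
Elovl3, chr19:46208559-46208778: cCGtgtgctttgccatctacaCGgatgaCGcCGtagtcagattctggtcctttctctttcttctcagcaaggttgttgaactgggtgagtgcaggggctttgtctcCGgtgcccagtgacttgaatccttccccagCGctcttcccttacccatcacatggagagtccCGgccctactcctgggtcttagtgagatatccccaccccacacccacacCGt
Cyp2d9, chr15:82284589-82284808: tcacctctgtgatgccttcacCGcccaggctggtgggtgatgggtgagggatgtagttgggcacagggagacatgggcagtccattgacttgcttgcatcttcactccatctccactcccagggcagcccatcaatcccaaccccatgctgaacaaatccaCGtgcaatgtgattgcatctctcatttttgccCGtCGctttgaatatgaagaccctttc
Scara5, a receptor for ferritin, had 10 of 109 windows called, with 44.8%, 37.3% and 50.6% in males and 86.0%, 85.7% and 89.3% in females at chr14:66338501-66339000. Cyp2u1, a P450 of fatty acid oxidation, stood at 40.2% ± 2.87 and 82.9% ± 1.32. For Nat8, an acetyltransferase, the window was intergenic, 10076 bp from the gene's start (chr6:85771501-85772000), at 32.5% ± 5.70 and 73.5% ± 3.53. It lay closer to the starts of Cml5 and Gm11128. A window near Gstp1 and Gstp2, glutathione transferases that share it, was at 52.2% ± 6.81 and 91.6% ± 1.54. The major urinary protein gene Mup7 stood at 54.8% ± 9.84 and 88.9% ± 5.63 with 9.67 counts per CpG in males. An intergenic window 7104 bp from the start of Mup21 was at 53.2% ± 6.97 and 80.4% ± 2.74. Reads of this family can come from near-identical copies, and whether this also holds for the P450 clusters was not tested. Smaller differences were found at Nudt7 (-27.7 points, intergenic), Serpina12 (-24.1 points, intergenic) and Egfr (-21.6 points, intron). Of the 6 fits that left out 1 animal each, the call was lost in 2 for Nudt7, in 6 for Serpina12 and in 5 for Egfr (limma adjusted p up to 0.105, 0.319 and 0.228). The calls of Sall1 and Cyp2c40 were removed by leaving out female 3 (19.6 points, under the minimum) and male 1 (adjusted p = 0.0526).

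**Figure D4:**
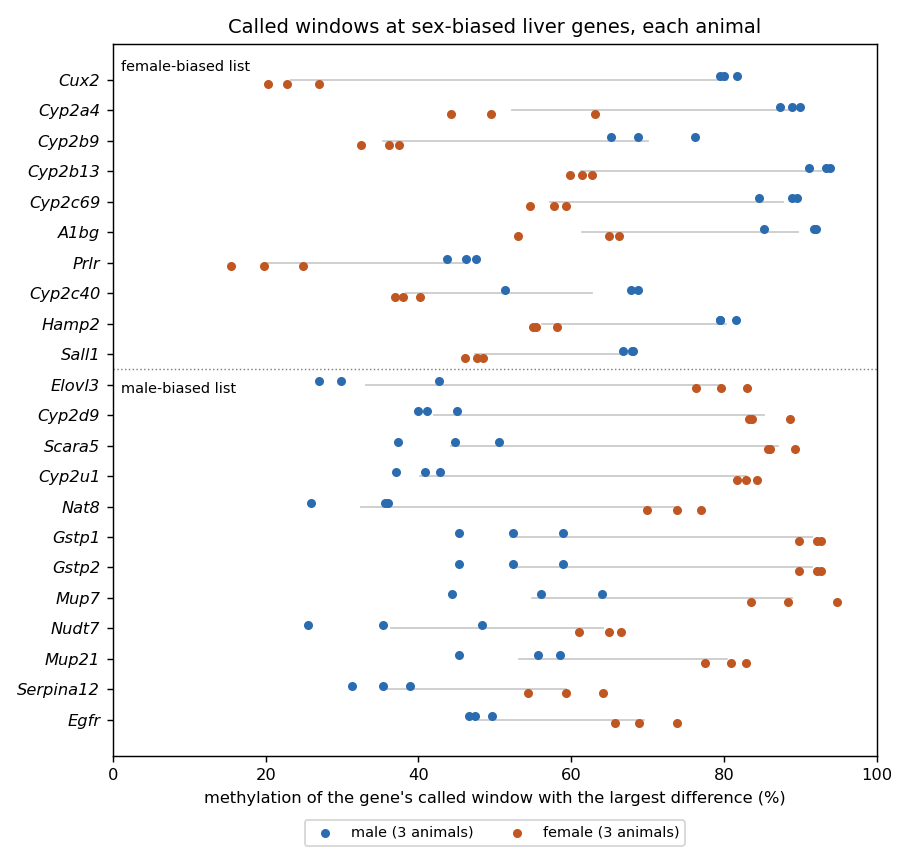
Methylation level (horizontal axis, percent) of each B6C3F1 animal at the called window of largest difference of the 10 female-biased (above the dotted line) and 12 male-biased genes (below it) with a call; each point is 1 animal and grey lines join the means. Males lie above females in every female-biased gene and below them in every male-biased gene. The windows were called on these same animals, so the separation of the points follows largely from the calling rule. Gstp1 and Gstp2 share 1 window.

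Of 20 genes of growth hormone signalling, 3 had a male-high window (Cux2, Prlr and Socs3, a feedback inhibitor of cytokine signalling) and 0 a female-high one, against 0.257% and 2.23% of all genes. Cux2 and Prlr are also on the female-biased list. Socs3 had 53.6%, 59.9% and 53.8% in males and 29.2%, 37.9% and 39.1% in females (20.3 points, limma adjusted p = 0.0216), and its call was lost in 5 of the 6 fits that left out 1 animal. Ghr, Jak2, Stat5a, Stat5b, Bcl6 and the others had none. Of 14 hormone receptor genes measured, 2 had a female-high window: Rora, a nuclear receptor (54.3% ± 11.6 in males, 79.4% ± 5.36 in females), and Esr1, the oestrogen receptor (71.3% ± 1.12 and 92.9% ± 1.26). The call at Rora was lost under a quasi-binomial model. Of 16 hepatocyte transcription factor genes, 3 had one, Foxa3 (-26.4 points), Nr5a2 (-25.7 points) and Zhx2 (-20.3 points), and these calls were lost in 4, 5 and 3 of the 6 fits that left out 1 animal. The call at Nr5a2 was also lost with counts thinned to equal totals. Of 12 genes for DNA methylation enzymes and readers, Mbd2, a reader of methylated CpGs, had a female-high window (56.1% ± 7.29 and 84.4% ± 1.91) 843 bp from its start. None of 14 imprinted genes had a call. Their promoters, which carry methylation on 1 parental allele in many of these genes, had a median of 51.2% in males and 49.6% in females, and differences between -4.40 and 4.00 points.

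Promoters were tested separately, over 500 bp on either side of the start site of 20123 protein-coding genes. Of these, 5 were higher in males (0.0248%) and 9 in females (0.0447%), and the median difference of the female-biased list was 1.58 points and of the male-biased list -1.19 points. The largest difference was at Cyp2b13, where the males stood at 78.8%, 85.9% and 85.6% and the females at 31.3%, 34.7% and 37.8% (48.8 points, limma adjusted p = 5.22e-05). The stretch with 3 of its 4 CpGs, chr7:26846519-26846738 just past the start site, reads as follows.
Cyp2b13 promoter: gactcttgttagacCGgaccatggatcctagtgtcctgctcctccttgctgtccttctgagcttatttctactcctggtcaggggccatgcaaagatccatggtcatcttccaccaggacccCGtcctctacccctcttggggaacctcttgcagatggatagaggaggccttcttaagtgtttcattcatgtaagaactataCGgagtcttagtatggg
Other male-high promoters were those of Cyp2a4 (80.2% ± 2.50 and 56.1% ± 3.36), the P450 gene Cyp3a41a (62.9% ± 8.06 and 40.1% ± 3.49) and BC089597 (66.7% ± 4.39 and 44.7% ± 1.85). Cyp2b13, Cyp2a4 and Cyp3a41a are on the female-biased list. The call at Cyp3a41a was lost without male 1 (18.2 points). The promoter of Cyp3a41b, also on that list, was at 64.9% in males and 43.6% in females and was not called (limma adjusted p = 0.050003). Female-high promoters were led by 2810007J24Rik (14.7% ± 1.42 in males, 52.3% ± 1.66 in females) and 4833442J19Rik (33.4% ± 1.76 and 69.0% ± 4.02). They also included Nat8 (42.4% ± 2.10 and 72.3% ± 3.70), Mup7 (30.2% ± 3.81 and 58.1% ± 5.51), Slc22a28, a gene of the organic anion transporter family (34.5% ± 4.77 and 62.0% ± 5.69), and 4930548G14Rik (58.1% ± 4.18 and 81.1% ± 2.63). Gm11128 and Cml5 start at nearly the same base and shared 1 set of values (41.0% ± 6.53 and 68.7% ± 2.00). The Cyp2d9 promoter was at 25.3% ± 7.83 and 48.7% ± 2.59, and its call was lost without male 1, female 2 or female 3 (adjusted p up to 0.180). With 1000 bp on either side of the start site, the calls at Nat8, Cyp2a4 and 4930548G14Rik were lost. The CpG-rich Elovl3 promoter, in contrast to the window in the gene, was at 0.817% in males and 3.18% in females.

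Single CpGs were also tested by a beta-binomial Wald test, and runs of differing CpGs were joined to differentially methylated regions (DMRs) of at least 5 CpGs and 50 bp. Of 18542784 CpGs tested, 401 were male-high (0.00216%) and 4514 female-high (0.0243%) at an unadjusted p below 1e-5. They made 90 DMRs, 9 male-high and 81 female-high, with a median length of 267.5 bp, 6 CpGs and a difference of 49.1 points. The DMRs were called on the same 6 animals, so their separation of all animals by sex follows largely from the calling. Of the 90 DMRs, 81 overlapped a called window, and both calls rest on the same counts. The 5 largest male-high DMRs were near Nkx1-1 (chr5:33800306-33800954, 88.3% against 21.7%), in Cux2 (chr5:122450756-122450927, 83.1% against 20.3%, and chr5:122451133-122451598, 83.1% against 26.0%), in Adamts2 (chr11:50483686-50483868, 70.5% against 18.9%) and in BC089597 (chr10:127305020-127305206, 87.4% against 37.7%). The 5 largest female-high DMRs brought in 2 genes not named so far. Ugt2b36, a glucuronosyltransferase that conjugates steroids and drugs (chr5:87510056-87510231, exon), was at 26.0%, 13.3% and 28.3% in males and 88.4%, 88.2% and 84.7% in females. Dhx9, an RNA helicase (chr1:155328551-155328605, intron), was at 18.7%, 36.8% and 29.3% in males and 84.2%, 93.1% and 89.6% in females. The others were in Prkg2, Arhgap23 and Dock1. The number of DMRs was 43, 45 and 37 without males 1, 2 and 3, and 57, 55 and 65 without females 1, 2 and 3.

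Male-high windows lay closer to start sites than female-high ones, at a median of 10395.5 bp against 22333 bp, and all tested windows had a median of 30204 bp. This was not tested. Among female-high windows 71.5% were more than 10 kb from any protein-coding start site, among male-high windows 51.0%, and among all tested windows 73.7%. Within 1 kb of a start site lay 3.04%, 13.5% and 6.10%. Introns held 46.6% of the female-high, 55.2% of the male-high and 37.4% of all windows. Nearly all called windows had middling methylation, with 97.7% and 93.8% at a mean level of 20% to 80%, where 27.7% of all windows were, and a difference of 20 points cannot arise where both sexes are near 0% or 100%. Female-high windows held 7.02 CpGs on average, male-high 8.29 and all windows 8.28. A variant between the C57BL/6N and C3H/HeN genomes lay in 17.0% of female-high, 16.7% of male-high and 22.1% of all windows.

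Short motifs of liver factors were counted on both strands of the mm9 sequence of each window. ATTGAT, the core bound by HNF6 and CUX2, was in 291 of 789 female-high windows (36.9%) and in 9 of 96 male-high windows (9.38%), against 17.0% of all tested windows. TTCNNNGAA, bound by STAT5, was in 165 of the 789 female-high windows (20.9%), in 12 of the 96 male-high windows and in 15.7% of all windows, and TTGCNNAA, bound by C/EBP factors, in 27.6% of female-high, 18.8% of male-high and 19.7% of all windows. TGTTTAC (FOXA) was in 10.4%, 7.29% and 7.05%, AGGTCA (nuclear receptors) in 33.3%, 30.2% and 27.6%, AGAACA (androgen and glucocorticoid receptors) in 35.9%, 32.3% and 38.0%, and CACGTG (E-box) in 9.13%, 8.33% and 9.11%. CAAAGTCCA (HNF4A) was in 1.27%, 0% and 0.645%, and TTCCTAGAA (BCL6), which is a form of TTCNNNGAA, in 1.394%, 1.04% and 0.751%. Among the sequences printed above, the Sntg2 window held 1 copy of ATTGAT or its reverse complement, the 4930556M19Rik window 2 and that of Cyp2d9 1. The female-high window of Elovl3 held none, as did those of Nkx1-1, Cux2, Adamts2 and Cyp2a4 and the Cyp2b13 promoter. The G and C content was 44.3% in female-high, 50.02% in male-high and 46.3% in all windows, and its part in these shares was not tested. A match is a run of letters and not a bound site.

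The reciprocal cross C3B6F1 gave other sons and virgin daughters. They did not enter the B6C3F1 contrast, but they entered its shared variance estimate and the count filter of the windows. At the 96 windows called male-high in B6C3F1, the mean level was 62.3% to 67.4% in C3B6F1 males and 46.9% to 49.8% in C3B6F1 females (17.5 points), and at the 789 female-high windows 45.0% to 52.5% and 69.8% to 72.7% (-22.6 points). The sexes did not overlap in either set (exact permutation tests, two-sided, p = 0.1 each, which is the smallest value that 3 against 3 can give). The direction was the same in 95 of 96 and in 788 of 789 windows. The share of all tested windows with the same direction in both crosses is not given here. In C3B6F1 the same rule called 34 male-high windows (0.00233% of all) and 589 female-high windows (0.0404%). Of the B6C3F1 calls, 26 male-high windows (27.1% of those in B6C3F1 and 76.5% of those in C3B6F1) and 417 female-high windows (52.9% and 70.8%) were called in both crosses. The median difference at the windows was smaller in C3B6F1 (16.3 and 21.2 points, against 23.7 and 25.5 in B6C3F1), but the windows had been chosen by their B6C3F1 values. Of the C3B6F1 males, male 1 lay nearest the females in both sets, at 62.3% and 52.5%. It also had the highest relative X-chromosome depth of the males, 0.5999. Its part in the smaller differences was not tested. The exceptions in direction were chr12:84752501-84753000 near Dcaf4 (57.7% in males and 37.3% in females of B6C3F1, 38.6% and 45.2% in C3B6F1) and chr5:117540001-117540500 near Suds3 (34.4% and 55.1%, 48.3% and 41.6%).

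**Figure D5:**
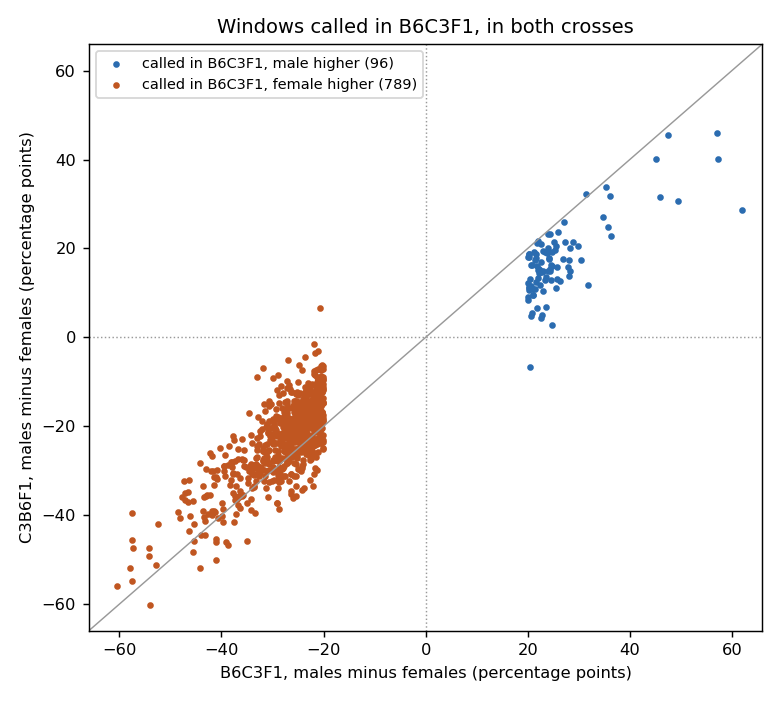
Difference in methylation between males and females (percentage points) at each window called in B6C3F1, in B6C3F1 (horizontal axis) and in the reciprocal cross C3B6F1 (vertical axis); the solid line marks equal differences. In C3B6F1, 95 of 96 male-high and 788 of 789 female-high windows keep their side of 0, and no window lies between -20 and 20 on the horizontal axis because of the 20-point minimum.

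A test of the difference between the crosses called 1 window of all tested (6.86e-05%), again chr5:33800001-33800500 near Nkx1-1. The daughters of the crosses were apart there, at 18.6%, 16.8% and 15.8% in B6C3F1 and 34.7%, 47.2% and 41.9% in C3B6F1, while the sons stood at 83.8%, 78.5% and 75% and at 68.2%, 67.9% and 73.9% (difference of the sex differences 33.3 points, limma adjusted p = 0.00818). The call was lost without male 1 or female 3 of B6C3F1. Sires stood at 78.5% and dams at 17.7% in this window. Their difference of 60.8 points was near the 62.1 points of B6C3F1, whereas C3B6F1 had 28.7 points.

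Sires and dams differed in a further way, since the dams had borne and nursed pups and the parents were inbred. With 3 sires against 3 dams of 1 strain, the same rule called 554 male-high and 898 female-high windows in B6, of 1456902 tested. In C3 it called 790 and 1455. The contrast over both strains took 6 sires against 6 dams, more animals than in B6C3F1, so its counts are not on equal terms. It called 520 male-high windows (0.0357%) and 997 female-high windows (0.0684%) between sires and dams. Of the B6C3F1 calls, 67 of 96 male-high and 601 of 789 female-high windows were among these. Both sets of windows were chosen by their values in sires and dams, which differed by -27.6 points at the 997 female-high windows. There the B6C3F1 males had 43.5% to 45.8% and the daughters 66.5% to 68.7% (-23.5 points). At the 520 male-high windows, where sires and dams differed by 26.4 points, the B6C3F1 sexes differed by 8.76 points. The B6C3F1 males had 67.6% to 68.9% and the females 59.1% to 59.7% (exact permutation tests for both sets, two-sided, p = 0.1 each, the smallest possible). The C3B6F1 sexes differed by 5.96 points at these 520 windows. The sex difference itself differed between B6C3F1 and the parents in 141 windows toward more female-high (0.00968%) and in 3 toward more male-high (0.000206%). In the 141 windows the median level was 76.6% in B6C3F1 males, 78.2% in B6C3F1 females and 78.3% in sires, but 48.4% in dams. In 133 of them the B6C3F1 sexes differed by less than 10 points. The 141 windows were chosen by these same values, and unequal sex differences in B6C3F1 and the parents are what the test selects. Parity and inbred genotype both separate dams from daughters and cannot be told apart here.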

How the data were processed

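Liver DNA of 24 mice (20 weeks old) was bisulfite sequenced; the 6 B6C3F1 animals are described and the other 18 shared the variance estimate. Per the labels and methods, the authors base-called reads with CASAVA 1.8.2, aligned them to mm9 with Bismark 0.7.8 and Bowtie 0.12.8, removed duplicates, clipped biased read ends and merged libraries of an animal. The deposited tables hold methylated and unmethylated counts per CpG and animal, not normalized, for CpGs present in both strain genomes. Replicates were separate animals, and by the paper each family gave a sire, a dam, a son and a daughter. The main fit did not model families.

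Counts were summed in 500-bp windows (at least 5 CpGs and 30 counts in each animal) and within 500 bp of protein-coding start sites (GENCODE vM1). limma 3.58.1 in R 4.3.3 was fitted to log2((methylated + 1)/(unmethylated + 1)) of 8 groups, with trended, robust variances. Adjusted p-values are Benjamini-Hochberg over all windows or promoters. Single CpGs were compared with a Wald statistic under a beta-binomial model like that of DSS (DSS itself was not run). DMRs needed 75% of CpGs at p below 1e-5 and 20 points. Differing CpGs were joined within 100 bp across CpGs that did not differ, and over longer gaps where they were direct neighbours. DMRs were left out above a mean depth of 500 counts or a depth ratio of 5. Single values were compared by exact permutation tests (scipy 1.17.1). The limma and Wald scripts were tested on simulated data. The deposited list of strain variants was used for positions only, and 12 samples of other assays were not used here.

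Named were the 12 regions per direction with the largest difference, no overlap of the sexes and a depth of at least 10 counts per CpG; the 5 largest DMRs per direction; listed genes with a called window; and called promoters (up to 20). Of these, 1 region and 1 promoter are not reported here. Members, lists and rules were chosen with earlier results of these data known. Alternatives covered coverage, pseudocount, scale, test, window size and place, depth, pairing and single animals.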

Additional observations from a re-analysis of the deposited data

Results flagged for a closer look

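Each result here was noted because a test of the difference itself found the sex difference of B6C3F1 to differ from that of another group of animals. At the window near Nkx1-1 (chr5:33800001-33800500), males exceeded females by 33.3 points more in B6C3F1 than in C3B6F1. The sex difference there was 62.1 points in B6C3F1, 60.8 between sires and dams and 28.7 in C3B6F1, so C3B6F1 stood apart. Against the parents, 144 windows differed. The 3 largest were near AI427809 (chr4:53325501-53326000, -61.2 points, with 81.0% in sons, 85.3% in daughters, 83.3% in sires and 26.4% in dams), in Mtap6 (chr7:106453501-106454000, -57.1 points, 76.8%, 80.8%, 80.5% and 27.5%) and in Wdr20a (chr12:111987001-111987500, -55.4 points, 86.0%, 90.7%, 87.6% and 36.8%). In all 3 the dams stood apart and the sons and daughters of B6C3F1 did not differ by 20 points.

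In 4 of these regions the B6C3F1 sexes also differed by the calling rule. Near Dap (chr15:30988001-30988500, -32.3 points), sons were at 44.8% and daughters at 74.3%, against 44.1% in sires and 41.4% in dams. In Psmc2 (chr5:21300001-21300500, -25.4 points) the levels were 49.97%, 69.98%, 58.2% and 52.8%. Near Hamp2 (chr7:31706501-31707000, -24.0 points) they were 80.2%, 56.2%, 84.5% and 36.4%, so the dams were lower than the daughters on the same side of the males. In Hao1 (chr2:134371001-134371500, 20.6 points) they were 31.4%, 57.1%, 28.2% and 74.5%. Single outlying animals were not tested for.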

How the results depend on the processing

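The count of 885 windows stayed within 1.5 times under 11 of the other settings (593 to 951). It was 1806 with a minimum of 10 points and 1909 with none, since smaller differences then count. Leaving out 1 animal gave 759 to 910. The 90 DMRs became 146 at p below 1e-4 and 37 to 65 without 1 animal, where fewer animals enter the test. The 14 promoters became 7 with at least 100 counts in each animal, which tests fewer promoters (18578), and 23 with 10 points; without 1 animal they were 12 to 17. The difference of 0.42 points in the autosomal methylation level of B6C3F1 males and females was -0.091 as a mean over CpGs; the cause was not tested. Without 1 animal it was 0.248 to 0.638. The window that differed between crosses ranged from 0 to 2 windows without 1 animal; it was 0 by limma without male 1 or female 3, with 73916 and 66100 windows at an unadjusted p below 0.05. The 144 windows that differed from the parents were 97 to 129 without 1 animal, 183 with no minimum and 166 on the arcsine scale. Leaving out animals in the tests between crosses and generations, and the other settings against the parents, were chosen after seeing the data. No named window or promoter changed direction in any setting; 10 of 48 windows and 5 of 14 promoters lost their call at least once. Not every setting tested each of them: 31 windows and 7 promoters were tested in all, of which 25 and 4 kept their call throughout.

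By the paper, whole families of a sire, a dam, a daughter and a son were taken from each cross, so sons and daughters shared litters. The labels do not say whether equal replicate numbers mark a family. Correlations over windows between animals with the same number were 0.0144, 0.0118 and 0.0166, under the threshold of 0.1 set for pairing. Each animal correlated best with its own number, and all other correlations were negative. Deviations were taken from the mean of each group, so the negative values partly follow from the positive ones. Values under the threshold cannot show that litters play no part. With the replicate block, 880 windows were called, or 907 in the 6 animals alone (884 without the block), 15 promoters, 1 window between the crosses and 148 against the parents. Under the block the window of Serpina12 lost its call. Of 4254058 windows with a CpG, 1456902 had the CpGs and counts to be tested.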

Other observations

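Promoters with an adjusted p below 0.05 but under 20 points held 2 that stand apart by their levels; both were chosen after their values were seen. The CpG-rich promoter of Rmnd5b, with 65 CpGs, was nearly unmethylated in males (0.657%, 0.106% and 0.741%) and partly methylated in females (12.2%, 10.97% and 14.8%), a difference of -12.1 points (limma adjusted p = 0.00163). The difference was -9.69 points in C3B6F1 and -5.96 points between sires and dams. The promoter of Zfp445, which encodes a zinc-finger protein, was highly methylated in all animals, at 78.7%, 82.5% and 79.1% in males and 96.6%, 97.4% and 95.0% in females. Also among the 13 such promoters were C6, a complement component on the male-biased list (17.2% ± 2.19 in males and 31.6% ± 7.78 in females, SD, n = 3 each), and Slc16a5 (32.7% ± 7.94 and 14.9% ± 2.81).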
